A study of Mus musculus with 18 samples.

Results

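The 3 wild-type mouse embryos of the study, WT 1, WT 2 and WT 3, were described here gene by gene at E11.5, where E stands for embryonic day. They were all the embryos with the genotype Dnmt3b+/+ among 9 embryos profiled by RNA-seq and 18 samples in the series, and they were taken by genotype alone, with no measured value. The embryos were of the FVB strain and carried no Dnmt3b mutation, and the methods describe matings of Dnmt3b+/- and Dnmt3b+/CI mice, whole embryos scored as alive by their heart beat, and total RNA from each of 3 independent embryos. Sex, litter and somite number are not in the labels. The series set these embryos against embryos without Dnmt3b or with a catalytically inactive Dnmt3b, and neither is compared here. A group of 3 embryos offers no contrast between conditions, so every value below is a description with its spread and carries no p-value.

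At this stage the mouse embryo has limb buds, a folded brain with its first neurons, a beating heart with atria and ventricles, and a liver that has just become the main site of blood formation. Circulating red cells are still mostly primitive cells from the yolk sac, which carry embryonic globins, while the liver starts to make definitive cells with adult globins. Expression in a whole embryo is the sum over all of these tissues, so a level reflects both how many cells express a gene and how strongly. In whole-embryo RNA fewer cells of a type and less RNA per cell cannot be told apart.

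Levels are given in FPKM, fragments per kilobase of gene scaled to the library total, which allows genes of different length to be compared. The libraries held 44645867, 49808781 and 39221703 reads in WT 1, WT 2 and WT 3, and between 52.2% and 53.1% of them lay on the genes of the table. A gene of 2 kb with 3 reads has between 0.0301 and 0.0382 FPKM at this depth, and 3 reads or fewer are taken here as not seen. Of 34244 genes, 12328 (36.0%) reached 1 FPKM in all 3 embryos, 1054 in 1 or 2 of them and 20862 in none. The number at 1 FPKM or more was 12859, 12828 and 12870 in the 3 embryos. No reads at all were found for 9904 genes in any embryo.

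**Figure D1:**
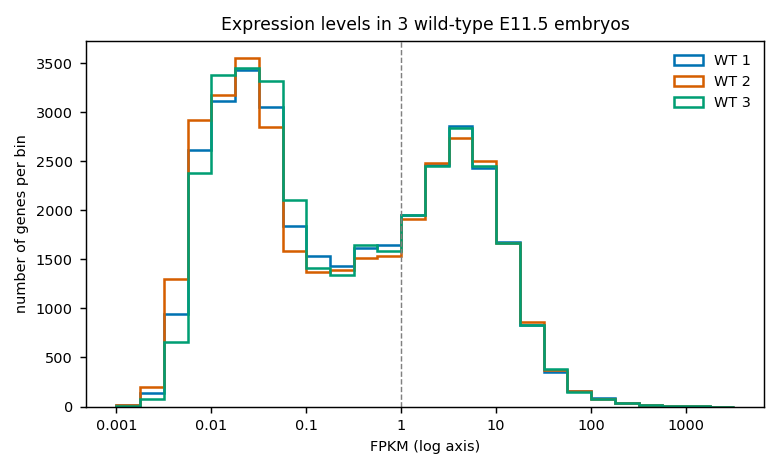
Number of genes (vertical axis) by FPKM (horizontal log axis) in WT 1, WT 2 and WT 3, with a dashed line at 1 FPKM. Each embryo shows a hump of expressed genes above 1 FPKM and a second hump of genes with few or no reads, and the 3 outlines nearly coincide above the line.

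The label of all 3 libraries is whole embryo, but markers of several organs were far lower in one or another of them. Markers of hepatocytes, the main cells of the liver, were at or near 0 reads in WT 2: albumin (Alb) had 8960 reads in WT 1, 12 in WT 2 and 4016 in WT 3. The ventricular myosin light chain gene Myl2 was near 0 in WT 1 and WT 3, with 1, 1409 and 5 reads. En2, a homeobox gene of the border between midbrain and hindbrain, had 5, 1272 and 24 reads. WT 1 differed from the other embryos in the sex-linked genes, with abundant Xist and no reads of the Y-linked genes Eif2s3y, Ddx3y, Kdm5d and Uty. What led to these differences was not tested, and every result below is given embryo by embryo for that reason.

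The 30 most abundant genes took up 10.8% ± 0.318 (SD, n = 3) of the summed FPKM, and the 100 most abundant 19.8% ± 0.123. Globins, translation genes and the imprinted growth genes H19, Igf2 and Cdkn1c stood at the top. The first place was held by Hbb-y, the embryonic beta-like globin of primitive red cells, with 1121, 1701 and 1208 FPKM in WT 1, WT 2 and WT 3. Eef1a1, which brings aminoacyl-tRNA to the ribosome, came second with 1259, 1198 and 1238 FPKM, so the embryos lay within 1.05-fold of each other. The alpha globin gene Hba-a1 had 1525, 724 and 807 FPKM, highest in WT 1.

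H19, an imprinted non-coding RNA made from the maternal allele and abundant in fetal mesoderm and endoderm, followed with 1012, 885 and 1096 FPKM. Its neighbour Igf2, a fetal growth factor, had 279, 280 and 330 FPKM, and Cdkn1c, a growth-limiting inhibitor of cyclin-dependent kinases, had 272, 349 and 365 FPKM. Together H19 and Igf2 made up 0.906% ± 0.0861 of the summed FPKM (SD, n = 3). The fetal alpha-tubulin Tuba1a, strongly expressed in young neurons, had 455, 913 and 501 FPKM and was 2.01-fold higher in WT 2 than in WT 1. Ribosomal protein genes, 86 in all, took 8.88% ± 0.554 of the summed FPKM, and Rplp1, Rpl8 and Rplp0 were the most abundant of them.

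Apart from the globins and Tuba1a, the most abundant genes were close between embryos. Ftl1, the light chain of the iron store ferritin, had 585, 592 and 566 FPKM, and Hsp90ab1, a chaperone, had 467, 447 and 468 FPKM. Beta-actin (Actb) had 481, 481 and 525 FPKM, and the beta-tubulin Tubb5 361, 425 and 372 FPKM. Further down, the imprinted neuronal gene Nnat had 252, 317 and 285 FPKM, the growth cone protein gene Basp1 199, 322 and 229 FPKM, and the neuronal tubulin Tubb2b 175, 331 and 191 FPKM, all highest in WT 2.

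A few entries near the top share sequence with other genes and are uncertain. Gm20721 lies opposite Gnas, Gm44732 opposite Cdkn1c and Gm10252 opposite Ftl1, and without a stated strand setting the reads of such pairs cannot be told apart. Gm45713 runs on the same strand through Rpl13a and Flt3l. The 13 mitochondrial genes in the table all stood at 3 reads or fewer in every embryo, including genes that every cell uses, so they are listed at the floor and are not read as absent.

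**Figure D2:**
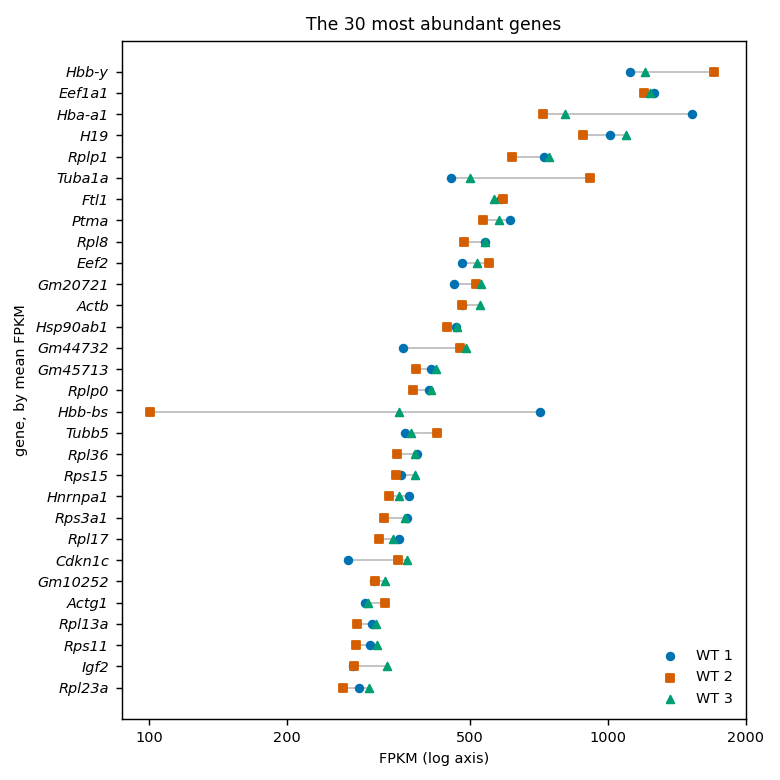
FPKM (horizontal log axis) of the 30 genes with the highest mean, ordered by it, with 1 symbol per embryo and a grey line from the lowest to the highest. Most genes are close together in the 3 embryos, whereas Hbb-bs runs from 100.4 FPKM in WT 2 to 711 FPKM in WT 1.

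Among the 12910 genes with a mean of at least 1 FPKM, the median SD of log2(FPKM + 0.1) over the 3 embryos was 0.11, with quartiles of 0.06 and 0.18. Counting of reads alone would give a median SD of 0.05, and 10573 genes exceeded their own counting SD. An SD over 3 embryos scatters widely, so counting alone would also put some genes above it. For 8009 genes (62.0%) the highest embryo was less than 1.2-fold above the lowest on this scale. A range of at least 2-fold was found for 430 genes, 3.33% of those tested, and a range of at least 10-fold for 65. WT 2 was an end of the range for most of them, which ran from WT 2 down to WT 1 for 213 genes and from WT 1 down to WT 2 for 161. WT 2 lay at least 2-fold below WT 1 for 175 genes (1.36%) and at least 2-fold above it for 227 (1.76%).

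WT 3 was nearer to WT 1 than to WT 2. Between WT 3 and WT 1, 57 genes (0.442%) were 2-fold or more apart, whereas WT 3 was at least 2-fold below WT 2 for 80 genes (0.62%) and above it for 118 (0.914%). The Euclidean distance over these genes was 60.9 log2 units between WT 1 and WT 2, 45.6 between WT 2 and WT 3 and 31.6 between WT 1 and WT 3. The Pearson correlation across genes, which are not independent replicates, was 0.934, 0.963 and 0.982 for the same pairs. Without WT 2 the number of genes with a 2-fold range was 54, without WT 1 it was 170, and without WT 3 it was 405.

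The genes with the highest SD were mostly those of liver, sex chromosomes and heart. Of the 30 genes with the highest SD, Xist came first, followed by Gm26992, which overlaps it, and by the hepatocyte genes Afp and Alb. Besides the genes treated below, the top 30 held the plasma protein genes Serpina6, Ambp, Serpinf2, Itih2 and Plg. They also held the pyruvate kinase gene Pklr, which liver and red cells share. Serpina6, the carrier of corticosteroids in blood, had 33.7, 0.0684 and 18.6 FPKM, and Plg, which encodes plasminogen, had 5.10, 0.0364 and 2.94 FPKM. Pklr had 8.50, 0.18 and 4.08 FPKM. The order was WT 1, WT 3, WT 2 for each of these plasma protein genes and for Pklr.

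The liver list of 18 genes had 15 members with a mean of at least 1 FPKM, and 13 of them had a range of at least 2-fold, against 3.33% of all genes. Only 4 of the 18 reached 1 FPKM in all embryos. The other tested members passed the filter on the mean through the embryos where they were high, which favours a wide range. Afp (ENSMUSG00000054932, chromosome 5 from 90490737 to 90508907 on the plus strand of GRCm38), the fetal counterpart of albumin, had 93.3, 0.119 and 52.0 FPKM in WT 1, WT 2 and WT 3, a 782-fold difference between WT 1 and WT 2. Alb (ENSMUSG00000029368, chromosome 5 from 90460897 to 90476602, plus strand) had 85.7, 0.103 and 43.7 FPKM, an 833-fold difference. WT 1 and WT 3 were within the same order of magnitude for both genes, and WT 2 was far below them.

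The apolipoprotein genes followed the same order. Apoa2 had 33.7, 0.112 and 19.7 FPKM, with 3 reads in WT 2, and Apoa1 had 23.6, 0.0325 and 13.6 FPKM, with 2 reads in WT 2. Fgb, a chain of the clotting protein fibrinogen, had 535 reads in WT 1 and 255 in WT 3 but 0 in WT 2, so WT 1 was at least 199-fold higher than a floor of 3 reads per library. Hnf4a, a transcription factor of hepatocytes, had 1.95, 0.00416 and 1.08 FPKM, with 1 read in WT 2. Serum transferrin (Trf) kept a low level in WT 2, with 35.7, 1.92 and 19.8 FPKM.

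The exceptions in the list were Ttr, Vtn and Onecut1, which are also expressed outside the liver. Ttr, which the choroid plexus of the brain makes as well, was highest in WT 2, with 22.5, 35.5 and 14.7 FPKM. Vtn, the gene of vitronectin, had 8.20, 7.92 and 9.16 FPKM, and Onecut1 1.03, 1.90 and 1.21 FPKM. Apoc3 had no reads in any embryo.

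WT 3 had a similar share of the level of WT 1 for most liver genes. Over the 15 tested genes the ratio of WT 3 to WT 1 had a median of 0.558 and quartiles of 0.540 and 0.6. It was 0.510 for Alb (95% counting interval 0.492 to 0.529), 0.558 for Afp (0.542 to 0.574), 0.556 for Hnf4a (0.470 to 0.657) and 0.616 for Ahsg (0.528 to 0.718), a fetal serum glycoprotein gene. Of the 15 genes, 1 was 2-fold or more apart in WT 1 and WT 3, against 0.442% of all genes. Genes of 1 embryo share its library, so these ratios are a description and not replicates of each other.

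The sequences just upstream of Alb and Afp are shown because these genes set the scale of the liver difference. Both are from RefSeq on GRCm38.p6, 250 bases ending just before the annotated start. Capitals mark the HNF1 half-site GTTAAT on either strand and the TATA box TATAAA, which do not overlap here. Alb lies at chr5:90460620-90460869 and Afp at chr5:90490464-90490713, both on the plus strand.
Alb: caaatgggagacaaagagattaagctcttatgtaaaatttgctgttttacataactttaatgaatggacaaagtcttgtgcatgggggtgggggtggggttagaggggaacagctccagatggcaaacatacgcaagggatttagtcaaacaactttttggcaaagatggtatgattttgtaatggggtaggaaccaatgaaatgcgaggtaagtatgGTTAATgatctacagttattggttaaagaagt
Afp: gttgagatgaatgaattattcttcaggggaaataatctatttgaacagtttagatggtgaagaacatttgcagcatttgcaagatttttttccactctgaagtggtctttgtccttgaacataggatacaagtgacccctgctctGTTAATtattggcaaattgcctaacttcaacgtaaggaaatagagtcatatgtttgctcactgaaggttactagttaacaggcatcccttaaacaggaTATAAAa

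HNF1 is a homeodomain factor known from liver promoters, and its half-site lies close to the start of Alb and further out in Afp. Of the 18 liver genes, 15 had 18 promoters in the RefSeq table, and 7 of those 18 (38.9%) held GTTAAT on either strand within 250 bases. Among all 32851 promoters of that length 6.43% held it, and among 28 promoters of neuron genes 6 did (21.4%). The match is a description of letters and not of binding.

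**Figure D3:**
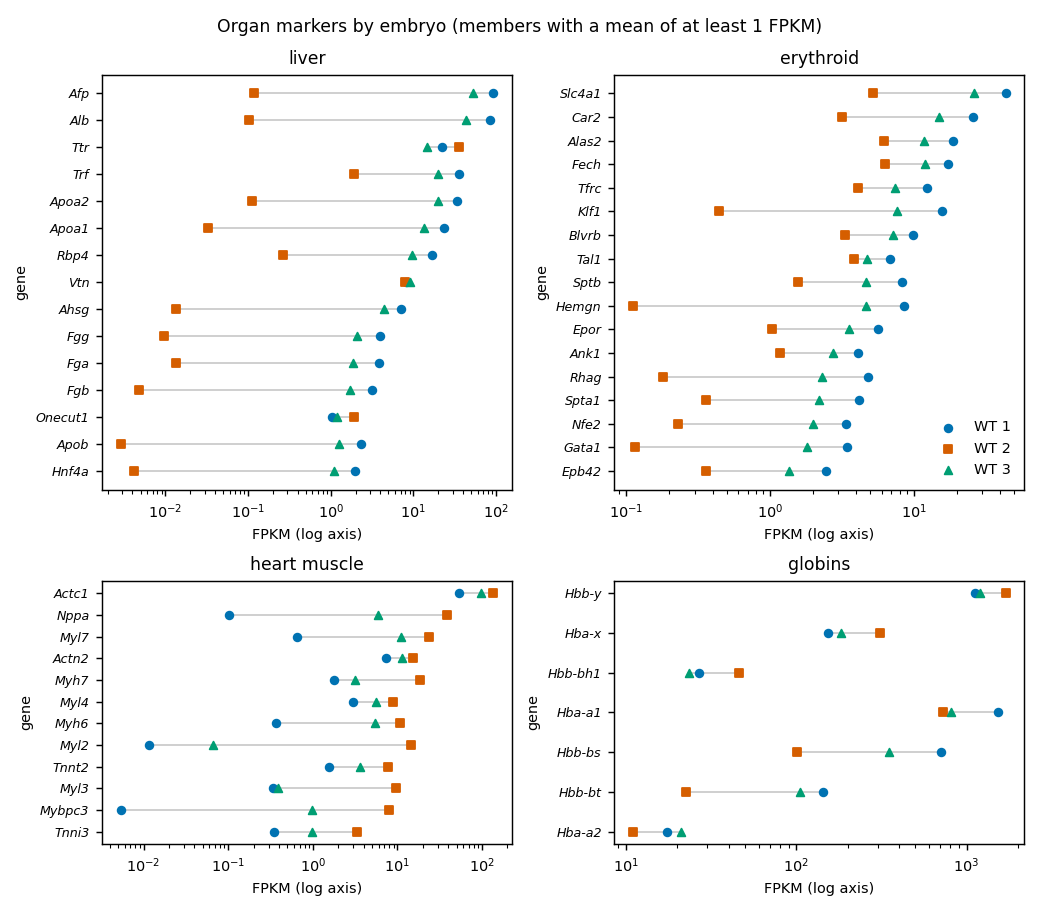
FPKM (horizontal log axes) of the members of the liver, erythroid, heart muscle and globin lists with a mean of at least 1 FPKM, 17 of 19 in the erythroid panel, with 1 symbol per embryo and a grey line from lowest to highest. WT 2 is the lowest embryo for 13 of 15 liver genes and all erythroid genes shown and the highest for all 12 heart muscle genes. Among all 12910 genes tested it is the lowest for 5547 and the highest for 4725.

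Genes of the red cell lineage showed the same order as the liver genes. Of 19 erythroid genes tested, 17 had a range of at least 2-fold, against 3.33% of all genes. Of these 19, 11 reached 1 FPKM in all embryos, and the others passed the filter on the mean through the embryos where they were high. All 19 were highest in WT 1 and all 19 lowest in WT 2, against 4491 and 5547 of all 12910 genes tested. Slc4a1, the band 3 anion exchanger of the red cell membrane, led with 43.6, 5.21 and 26.2 FPKM. Klf1, the transcription factor that activates the adult beta globin gene, had 15.7, 0.446 and 7.62 FPKM and was 35.2-fold higher in WT 1 than in WT 2. Hemgn, a nuclear protein gene of definitive red cell precursors, had 8.56, 0.112 and 4.65 FPKM, a 76.5-fold difference.

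Gata1, the master regulator of the lineage, had 3.43, 0.115 and 1.81 FPKM. The smallest difference in the list was that of Tal1, a factor that vessels express too, with 6.88, 3.83 and 4.76 FPKM. The ratio of WT 3 to WT 1 had a median of 0.595 over the 19 genes and ran from 0.479 to 0.722, close to the ratio of the liver genes. Without WT 2, 2 of the 19 genes were 2-fold or more apart, against 0.442% of all genes.

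Globins split by type. The primitive globins were highest in WT 2, with 1121, 1701 and 1208 FPKM for Hbb-y, 153, 310 and 184 FPKM for the embryonic alpha-like Hba-x and 26.9, 46.1 and 23.2 FPKM for Hbb-bh1. The adult beta globins were lowest in WT 2, with 711, 100.4 and 351 FPKM for Hbb-bs and 144, 22.4 and 106 FPKM for Hbb-bt. Summed over each list, primitive globins had 1300, 2057 and 1415 FPKM, and fetal and adult globins had 2397, 857 and 1285 FPKM. In WT 1 the fetal and adult sum was above the primitive sum, and in WT 2 and WT 3 it was below it. All globins together took 2.62%, 2.04% and 1.87% of the summed FPKM. The nearly identical copies Hba-a1 and Hba-a2 share sequence, so the split between them, with 17.3, 11 and 20.9 FPKM for Hba-a2, is uncertain. Only unique alignments were counted, so reads that fit more than 1 adult copy may be missing. Which sum is the larger in an embryo is therefore uncertain too.

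The start of Hbb-bs is shown because this globin had the widest range of the 7. The 250 bases upstream, from RefSeq on GRCm38.p6 at chr7:103827929-103828178 on the minus strand, hold the GATA site AGATAA, which was searched on either strand and is in capitals.
Hbb-bs: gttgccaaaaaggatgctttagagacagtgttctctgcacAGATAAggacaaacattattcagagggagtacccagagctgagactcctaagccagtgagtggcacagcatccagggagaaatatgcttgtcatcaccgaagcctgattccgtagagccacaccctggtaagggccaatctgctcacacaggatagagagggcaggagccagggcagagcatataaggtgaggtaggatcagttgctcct

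This motif was found in 4 of 14 promoters of 11 erythroid genes (28.6%) and in 9.99% of all promoters. It was about as common in heart muscle promoters, with 5 of 19 (26.3%). Of the 4 fetal and adult globin promoters 1 held it, and of the 2 primitive globin promoters none did.

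Platelet and granulocyte genes were also low in WT 2, whereas macrophage genes were not. Among megakaryocyte genes, 4 of 5 tested had a range of at least 2-fold, against 3.33% of all genes: the platelet chemokine Pf4 had 12.5, 2.78 and 6.75 FPKM, and Ppbp had 7.28, 0.315 and 2.85 FPKM. The fifth, Gp1bb, had 7.07, 10.5 and 8.24 FPKM. A granulocyte list, chosen after these values were seen, had 5 of 6 tested genes at least 2-fold lower in WT 2 than in WT 1, against 1.36% of all genes, with 3.96, 0.188 and 2.23 FPKM for myeloperoxidase (Mpo). Only 2 of 10 megakaryocyte and 1 of 10 granulocyte genes reached 1 FPKM in all embryos, so other tested members passed the filter through the embryos where they were high. Of 12 macrophage genes, 11 stayed within 2-fold: C1qa, a complement gene of tissue macrophages, had 5.25, 5.66 and 5.88 FPKM, and Csf1r, their growth factor receptor, 3.63, 4.04 and 4.39 FPKM. Lyz2, which granulocytes share, was the 1 with a 2-fold range, against 3.33% of all genes, with 4.7, 1.83 and 3.6 FPKM. None of the 11 matched lymphocyte genes reached a mean of 1 FPKM. Only Pax5 exceeded 1 FPKM in any embryo, with 0.175, 1.47 and 0.144 FPKM, and it is also a gene of the border between midbrain and hindbrain.

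Heart muscle genes showed the opposite order. All 12 tested members had a range of at least 2-fold, against 3.33% of all genes. Only 5 of the 16 members of the list reached 1 FPKM in all embryos. The other tested members passed the filter on the mean through the embryos where they were high, which favours a wide range. All 12 were highest in WT 2 and lowest in WT 1, against 4725 and 4711 of all 12910 genes tested. Actc1, the cardiac actin that young skeletal muscle also uses, was the most abundant, with 53.4, 137 and 98.4 FPKM. Nppa (ENSMUSG00000041616, chromosome 4 from 148000722 to 148002079, plus strand of GRCm38), the atrial natriuretic peptide gene, had 0.104, 38.7 and 5.89 FPKM, a 373-fold difference between WT 2 and WT 1 that rests on 4 reads in WT 1. The gene Gm13054 lies opposite Nppa and had 0.164, 23.1 and 3.48 FPKM, and reads of the pair cannot be told apart.

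Heart muscle genes held unequal shares in WT 3. Myl7, the atrial myosin light chain, had 0.645, 23.8 and 10.9 FPKM, and Myh6, the alpha myosin heavy chain, had 0.363, 10.7 and 5.38 FPKM, so that WT 3 held 0.460 (95% counting interval 0.399 to 0.531) and 0.503 (0.472 to 0.536) of the level of WT 2. For the ventricular light chain Myl3 the values were 0.340, 9.68 and 0.387 FPKM, and WT 3 held 0.040 (0.028 to 0.0571) of WT 2. Myl2 (ENSMUSG00000013936, chromosome 5 from 122100951 to 122113472, plus strand) had 0.0115, 14.5 and 0.0654 FPKM, and WT 3 held 0.00451 (0.00187 to 0.0108) of WT 2. The beta myosin heavy chain Myh7, mostly ventricular at this age, stood at 0.171 (0.161 to 0.182), and the atrial Nppa close by at 0.153 (0.132 to 0.176), so these shares did not follow a division into atrial and ventricular genes throughout. Mybpc3, a thick filament protein gene, had 0.00538, 7.86 and 0.974 FPKM with 1 read in WT 1. WT 1 was low for all of these genes, while WT 3 lay near WT 1 for Myl2 and Myl3 and, on a log scale, nearer to WT 2 for Myl7 and Myh6.

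The 250 bases upstream of Nppa are shown because Nppa had the widest range of the heart genes with more than 3 reads in every embryo. They come from RefSeq on GRCm38.p6 at chr4:148000472-148000721 on the plus strand, with the TATA box in capitals. The site of the muscle factor MEF2, searched on either strand as its palindrome with any 4 bases in the middle, was not found in this window, and it was found in 2 of 19 heart muscle promoters (10.5%) and in 3.20% of all promoters.
Nppa: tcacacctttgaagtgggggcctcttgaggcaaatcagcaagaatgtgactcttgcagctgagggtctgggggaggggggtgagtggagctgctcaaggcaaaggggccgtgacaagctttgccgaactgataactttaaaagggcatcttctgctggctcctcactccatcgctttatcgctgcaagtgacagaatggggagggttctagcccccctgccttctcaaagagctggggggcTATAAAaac

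Of 8 heart transcription factors tested, 1 had a range of at least 2-fold, against 3.33% of all genes. It followed the order of the heart muscle genes: Nkx2-5, an early cardiac homeobox gene, with 0.279, 3.94 and 1.35 FPKM. The list as a whole did not follow it. Of the 8, 6 were highest in WT 3 and 6 lowest in WT 2, against 3694 and 5547 of all 12910 genes tested. Hand2, Isl1 and Gata6, which act in other tissues as well, had 8.67, 6.67 and 9.35 FPKM, 4.73, 4.25 and 5.03 FPKM, and 3.31, 2.67 and 3.33 FPKM. None of the 7 valve and endocardium genes had a 2-fold range, a count near the 3.33% over all genes. Nfatc1, a gene of the endocardium and of lymphatic vessels, had 2.70, 3.03 and 3.07 FPKM. Of 15 endothelial genes 0 had a 2-fold range, a count near the 3.33% over all genes, and 13 were lowest in WT 1, against 4711 of all 12910 genes tested. Cldn5, a tight junction gene of vessels, had 11.6, 17.2 and 14.6 FPKM and Cdh5, their cadherin, 11.8, 13.1 and 13.2 FPKM.

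Genes of skeletal muscle contraction and cartilage were mostly highest in WT 3, within 2-fold. Myog, which drives muscle differentiation, had 16.4, 20.2 and 24.0 FPKM, and the embryonic myosin Myh3 had 18.1, 23.6 and 28.3 FPKM. All 13 contractile genes tested were lowest in WT 1, against 4711 of all 12910 genes tested, and WT 3 over WT 1 had a median ratio of 1.56. In the regulator list 1 of 8 genes had a 2-fold range, against 3.33% of all genes, and this was Lbx1, with 3.09, 9.50 and 4.72 FPKM, which also marks neurons of the dorsal spinal cord. All 11 cartilage matrix genes were likewise lowest in WT 1, led by Col2a1, the main cartilage collagen, with 88.4, 122 and 140.3 FPKM. Bone genes were low, with 3 of 10 at 1 FPKM or more in all embryos, led by Runx2 with 2.59, 1.97 and 2.40 FPKM, and the osteocalcin genes Bglap and Bglap2 were at 3 reads or fewer throughout.

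Of 18 connective tissue matrix genes none had a 2-fold range, a count near the 3.33% over all genes, with a median SD on the log2 scale of 0.13, and their summed FPKM was 772 ± 64.1 (SD, n = 3). Col1a1, a chain of the main fibrous collagen, led with 134, 182 and 173 FPKM, and Col3a1 had 87.8, 90.9 and 96.3 FPKM. Among 16 mesenchyme transcription factors 2 had a 2-fold range, against 3.33% of all genes, Foxf1, with 5.27, 2.48 and 6.67 FPKM, and Tcf21, with 2.63, 0.504 and 2.55 FPKM. Both are genes of the tissue around the gut and other inner organs, and both were lowest in WT 2. A list of gut wall and coelom genes, chosen after these values were seen, had 5 of 10 tested genes at least 2-fold lower in WT 2 than in WT 1, against 1.36% of all genes.

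Endoderm itself was measured at low levels. Among 8 gut and foregut genes tested, Epcam, an epithelial adhesion gene, had 5.48, 2.55 and 6.01 FPKM, and Cldn6, a fetal claudin, had 5.31, 1.51 and 6.48 FPKM, and these were the 2 with a 2-fold range, against 3.33% of all genes. Barx1, of the stomach wall and the jaw, led the list with 13.3, 8.31 and 15.2 FPKM, and Vil1, the microvillus gene, was lowest with 0.183, 0.0226 and 0.0718 FPKM. In the lung and thyroid list Nkx2-1, which the forebrain also expresses, had 6.87, 2.79 and 5.07 FPKM, and the products of mature lung and thyroid Sftpb and Tg stayed under 0.1 FPKM. In the pancreas list only 3 of 12 genes had a mean of at least 1 FPKM, all of which the nervous system shares. Somatostatin (Sst) led with 8.04, 23.6 and 9.70 FPKM and Nkx6-1 followed with 1.61, 5.50 and 4.22 FPKM, while Ins1 and Ins2 were at 3 reads or fewer throughout. Below 1 FPKM on average, members closer to the pancreas itself did not share 1 order, with 106, 1 and 74 reads for the glucagon gene Gcg, 62, 16 and 53 reads for the digestive enzyme gene Cpa1 and 11, 0 and 14 reads for Pdx1, a factor of the pancreas bud, but 23, 26 and 5 reads for Ptf1a and 19, 18 and 7 reads for Neurog3.

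**Figure D4:**
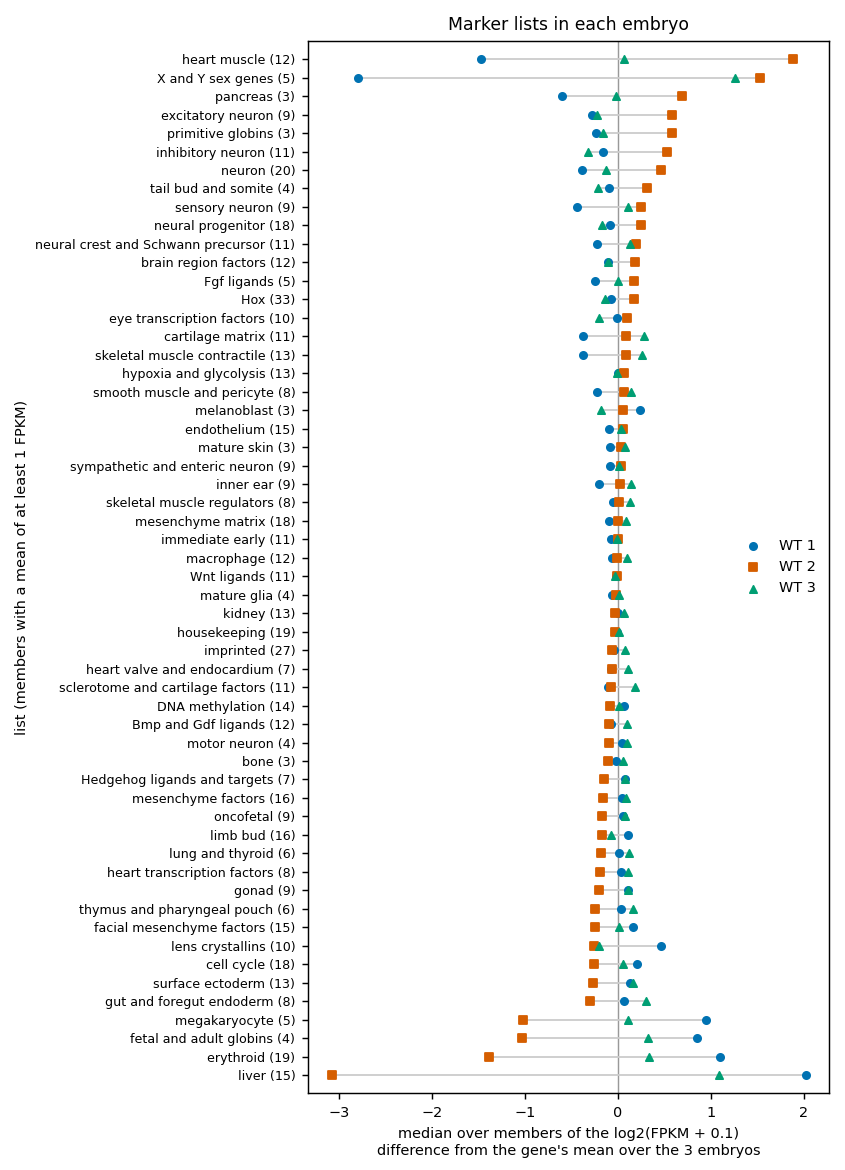
Median over the members of each list, by embryo, of the difference of log2(FPKM + 0.1) from the gene's mean over the 3 embryos (horizontal axis), for lists with at least 3 members at a mean of 1 FPKM, whose number is in parentheses. Liver, erythroid, adult globin and megakaryocyte lists lie far to the left in WT 2 and heart muscle far to the right, while most lists lie near 0 in all embryos.

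General neuron genes were highest in WT 2. All 20 neuron genes had their highest value there, against 4725 of 12910 among all genes tested. The lowest value was in WT 1 for 19 of the 20, against 4711 of all 12910. The neuronal tubulin Tubb3 had 138, 273 and 170 FPKM, Dpysl3, which guides growing axons, 45.8, 76.9 and 48.6 FPKM, and Ina, a neurofilament gene, 35.0, 85.8 and 46.5 FPKM. The ratio of WT 2 to WT 1 ran from 1.38 to 2.45 with a median of 1.82, and 2 of the 20 genes were at least 2-fold higher in WT 2, against 1.76% of all genes. Neural progenitor genes leaned the same way less steeply: 16 of 18 were highest in WT 2, with 86.7, 109 and 94.2 FPKM for vimentin (Vim), 26.9, 31.5 and 24.99 FPKM for Sox2 and 34.9, 66.7 and 46.7 FPKM for Fabp7.

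By neuron type, the highest value was in WT 2 for 8 of 9 excitatory, 7 of 11 inhibitory, 5 of 9 sensory, 4 of 9 sympathetic and enteric and 1 of 4 motor neuron genes, against 4725 of all 12910 genes tested, and differences between the types were not tested. Among 11 inhibitory neuron genes, 5 were at least 2-fold higher in WT 2 than in WT 1, against 1.76% of all genes, and among them Lhx1 and Lhx5, factors of spinal cord and hindbrain neurons, had 3.87, 11.1 and 3.93 FPKM and 4.91, 12.9 and 5.36 FPKM. Dlx2 and Dlx1 of the same list, which are forebrain genes but also stand in the facial mesenchyme list, were not higher there. Dlx2 had 9.03, 6.48 and 7.83 FPKM and Dlx1 8.60, 5.24 and 6.36 FPKM. Among 9 excitatory neuron genes 2 were 2-fold higher in WT 2, against 1.76% of all genes, with Barhl1, of the cerebellum and hindbrain, at 0.964, 3.16 and 1.16 FPKM. Sensory neurons also had 2 of 9, with Pou4f1, of sensory ganglia and midbrain, at 3.24, 9.13 and 3.75 FPKM. Motor neuron genes had none of 4, with Isl1 and Foxp1 leading and the choline acetyltransferase gene Chat at 0.143, 0.243 and 0.200 FPKM.

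Of 12 brain region factors tested, En2, Nkx2-1 and Otx2 had a range of at least 2-fold, against 3.33% of all genes. En2 (ENSMUSG00000039095, chromosome 5 from 28165694 to 28172166, plus strand) had 0.0316, 7.22 and 0.173 FPKM, a 228-fold difference between WT 2 and WT 1, whereas its relative En1 had 2.37, 4.19 and 2.91 FPKM. The telencephalic factor Emx1, with 4.03, 4.26 and 4.56 FPKM, was close in all embryos, and so was Lhx2 with 15.7, 18.4 and 16.6 FPKM. In a list of border genes, chosen after these values were seen, 3 of 8 tested genes were at least 2-fold higher in WT 2 than in WT 1, against 1.76% of all genes, among them Tal2, a gene of midbrain neurons, with 0.317, 3.46 and 0.918 FPKM. Egr2 and Hesx1 were low in every embryo.

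Genes of the neural crest, the face and the sense organs were measured in all 3 embryos. Sox10, of neural crest and Schwann cell precursors, had 8.95, 8.98 and 12.2 FPKM. Among facial mesenchyme factors, 13 of 15 were lowest in WT 2, mostly within 2-fold, against 5547 of all 12910 genes tested. Pitx1, which also marks the hindlimb, had 22.0, 9.76 and 13.8 FPKM, and Alx1, of the mesenchyme in front of the brain, 3.04, 0.928 and 1.49 FPKM. Lens crystallins were highest in WT 1 for 9 of 10 genes, against 4491 of all 12910 genes tested, with 36.1, 19.5 and 20.96 FPKM for Cryaa and 13.6, 7.72 and 9.32 FPKM for Crybb1, and Crybb2, a later crystallin, had no reads. In the inner ear list 3 of 9 genes tested had a 2-fold range, against 3.33% of all genes. They were Tbx1, with 3.34, 5.23 and 7.82 FPKM, Pax2, with 2.15, 5.56 and 2.51 FPKM, and Gata3, with 1.295, 3.13 and 2.27 FPKM, all of which other organs use too, while Oc90, a gene of the otic vesicle, had 3.06, 2.82 and 5.04 FPKM. Of 10 eye transcription factors 2 had a 2-fold range, against 3.33% of all genes. They were Otx2, with 2.51, 4.44 and 1.99 FPKM, and Pou4f2, a factor of retinal ganglion cells and other neurons, with 0.818, 2.17 and 0.732 FPKM. Pituitary hormone genes were low, with Pomc at 0.765, 0.655 and 0.754 FPKM and Cga at 3 reads or fewer.

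Hox genes are switched on in the order of their paralog groups from head to tail. Whole-embryo RNA sums over all positions along the body axis, so position itself was not measured. The list had 33 of 39 genes at a mean of 1 FPKM or more, and 14 of them had a range of at least 2-fold, against 3.33% of all genes. In groups 1 to 8 the summed FPKM was 96.1, 165 and 106, and 6 of 21 tested genes were at least 2-fold higher in WT 2 than in WT 1, against 1.76% of all genes, and none lower. In groups 9 to 11 the sum was 60.4, 38.1 and 27.9 FPKM. Of 9 tested genes 6 were at least 2-fold lower in WT 2 than in WT 1, against 1.36% of all genes, and none at least 2-fold higher. Hoxb9, the most abundant of them, was highest in WT 2, with 12.7, 20.9 and 10.4 FPKM.

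Hoxc10 (ENSMUSG00000022484, chromosome 15 from 102966796 to 102971893, plus strand) had 8.04, 1.07 and 0.735 FPKM and was 10.9-fold higher in WT 1 than in WT 3. Some genes of groups 9 and 10 were likewise highest in WT 1, unlike Hoxb9. They had 9.26, 2.81 and 2.66 FPKM for Hoxa10, 3.996, 0.995 and 1.14 FPKM for Hoxd10 and 6.32, 2.66 and 1.91 FPKM for Hoxd9. Among anterior genes Hoxb8 had 8.04, 19.6 and 8.02 FPKM and Hoxb5 3.10, 9.15 and 3.75 FPKM. The most posterior genes of clusters B and C were seen mainly in WT 3: Hoxc13 had 0.1001, 0.0979 and 1.53 FPKM, Hoxc12 0.348, 0.0389 and 1.90 FPKM and Hoxb13 0.0305, 0.00819 and 0.324 FPKM. Hoxa13 and Hoxd13, which the limb buds express too, were within 2-fold and lowest in WT 2, with 1.47, 0.893 and 1.62 FPKM and 6.88, 4.03 and 4.85 FPKM.

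**Figure D5:**
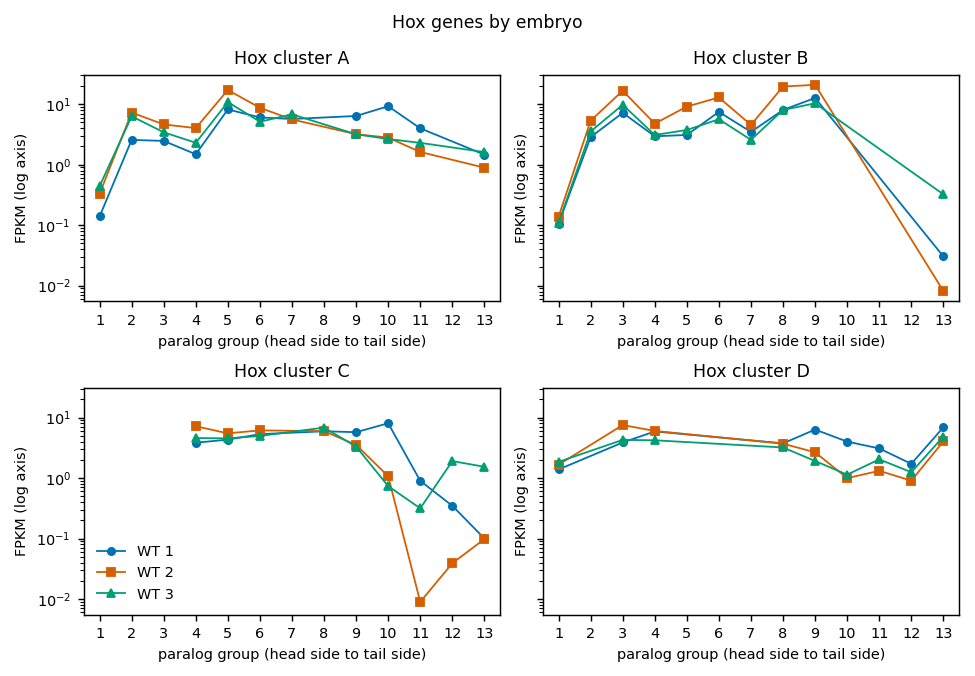
FPKM (vertical log axis) of the 39 Hox genes by paralog group (horizontal axis) in the 4 clusters, with 1 line per embryo; lines skip groups with no gene. WT 1 lies above the other embryos in groups 9 and 10 of clusters A, C and D, and WT 3 above them at the last groups of clusters B and C.

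Of 16 limb bud genes tested, 3 were at least 2-fold lower in WT 2 than in WT 1, against 1.36% of all genes, and 1 was at least 2-fold higher, against 1.76%. The higher one was Tfap2b, also a neural crest gene, with 5.04, 10.4 and 4.80 FPKM. The lower ones were Pitx1, given above, Hoxa11, which is one of the posterior Hox genes, with 3.996, 1.62 and 2.3 FPKM, and Tbx4, a hindlimb factor, 1.80, 0.667 and 1.03 FPKM. The forelimb factor Tbx5 was level, with 2.39, 2.54 and 2.59 FPKM, and so was Shh, the signal of the limb's posterior edge and of the notochord, with 1.97, 1.66 and 2.22 FPKM. A hindlimb list, chosen after these values were seen and mostly made of the Hox genes above, had 8 of 10 tested genes at least 2-fold lower in WT 2 than in WT 1, against 1.36% of all genes. Tail bud genes were scarce: of 17 members 6 were at 3 reads or fewer in every embryo, and Cdx2, of tail and gut, had 0.436, 0.00799 and 0.180 FPKM.

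The median level was 2.43 FPKM in the kidney list, 1.56 FPKM in the gonad list and 0.0982 FPKM in the germ cell list. Six2 of the nephron progenitors and the facial mesenchyme led the kidney list with 34.6, 20.6 and 28.6 FPKM. Of its 13 genes tested, Lhx1, Pax2 and Gata3 were more than 2-fold higher in WT 2 than in WT 1, against 1.76% of all genes, and Hoxa11, Hoxd11 and Wt1 more than 2-fold lower, against 1.36%, and all 6 are used outside the kidney. Wt1, of the coelomic lining, kidney and gonad, had 1.59, 0.496 and 1.33 FPKM. In the gonad list Amh, the testis hormone that removes the female duct, had 0.577, 0.541 and 2.12 FPKM and was highest in WT 3. The testis-determining gene Sry had no reads. Of 16 germ cell genes only Kit, which other lineages share, had a mean of at least 1 FPKM, with 2.59, 3.07 and 2.73 FPKM, and of 13 pluripotency genes only Klf2, an endothelial gene too, with 2.64, 4.21 and 3.89 FPKM.

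Sex-linked genes split WT 1 from the others. Xist (ENSMUSG00000086503, chromosome X from 103460366 to 103483254, minus strand), the RNA that silences an X chromosome in female cells, had 63.2, 0.0661 and 0.0256 FPKM, with 50660, 59 and 18 reads. Its antisense gene Tsix, whose reads cannot be told apart from those of Xist, had 22.6, 0.0297 and 0.0336 FPKM. Eif2s3y, Ddx3y, Kdm5d and Uty, genes of the Y chromosome that are active in most male cells, had 0 reads in WT 1, and Eif2s3y had 1318 and 1025 reads in WT 2 and WT 3. WT 2 was at least 394-fold above a floor of 3 reads in WT 1 for this gene. Reads of Xist without those of Y-linked genes are the usual pattern of a female, and the reverse that of a male. The rest of the X chromosome did not follow: over 408 X-linked genes the median log2 difference of WT 1 from the mean of the other embryos was 0.00, against 0.00 over 12494 autosomal genes. Genes known to escape silencing, a list chosen after these values were seen, were higher in WT 1, with 24.9, 13.3 and 14.8 FPKM for Eif2s3x and 4.38, 2.45 and 2.60 FPKM for Kdm6a, although none of the 6 passed 2-fold.

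Proliferation genes were ordered in the opposite way to neuron genes. Of 18 cell cycle genes 17 were highest in WT 1 and 17 lowest in WT 2, against 4491 and 5547 of all 12910 genes tested, but none had a 2-fold range, and the ratio of WT 2 to WT 1 had a median of 0.725. Pcna, the replication clamp, had 45.6, 32.6 and 38.0 FPKM, Ccnd2, a cyclin of the first gap phase, 35.8, 32.8 and 35.9 FPKM, and Mki67, a marker of cycling cells, 27.5, 15.4 and 22.1 FPKM. The oncofetal gene Hmga2, a chromatin protein of early embryos, had 24.1, 11.47 and 19.5 FPKM and was the only 1 of 9 oncofetal genes with a 2-fold range, against 3.33% of all genes.

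The DNA methylation machinery, the subject of the series, was measured in all embryos. None of 14 genes tested had a 2-fold range, a count near the 3.33% over all genes, and their median SD on the log2 scale was 0.08 against 0.11 over all genes, while the summed FPKM of the list was 195 ± 10.1 (SD, n = 3). Dnmt1, which copies methylation at replication, had 26.6, 23.8 and 25.8 FPKM, and its partner Uhrf1 had 33.2, 24.5 and 29.4 FPKM. The de novo enzyme Dnmt3a had 15.9, 14.05 and 15.2 FPKM, and Dnmt3b (ENSMUSG00000027478, chromosome 2 from 153649450 to 153687730, plus strand) 2.25, 1.62 and 2.04 FPKM, or 1.97 ± 0.319 (SD, n = 3). Dnmt3l, their cofactor in germ cells, was at 3 reads or fewer in every embryo. Among the Tet enzymes, which oxidise methylcytosine, Tet3 was the most abundant with 10.6, 10.9 and 9.79 FPKM and Tet1 the least with 1.66, 1.32 and 1.498 FPKM. The methyl-binding gene Mbd3 led the list with 66.5, 67.8 and 68.0 FPKM.

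Imprinted genes, which are expressed from a single parental allele, were abundant. Of 29 genes 27 reached 1 FPKM in all embryos, and their sum was 2527 ± 184 FPKM (SD, n = 3), or 1.77% of the summed FPKM. Mest had 119, 117 and 131 FPKM and Dlk1, a growth regulator, 58.9, 60.0 and 75.2 FPKM. Of the 27 tested, 1 had a 2-fold range, a share near the 3.33% over all genes, and the median SD on the log2 scale was 0.16 against 0.11 over all genes. This gene was Nap1l5, a neuronal gene, with 2.21, 4.64 and 2.89 FPKM. Kcnq1ot1 and Phlda2 were the lowest, with 0.516, 0.430 and 0.527 FPKM and 0.739, 0.484 and 0.751 FPKM.

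No Wnt ligand of 11 tested, no Fgf ligand of 5, no Bmp or Gdf ligand of 12 and no Hedgehog gene of 7 had a 2-fold range, counts that are near the 3.33% over all genes. Their median SD on the log2 scale was 0.18, 0.24, 0.26 and 0.13, each above the 0.11 over all genes. Wnt5a, of outgrowing limbs and face, led the Wnt genes with 11.3, 8.32 and 9.46 FPKM, ahead of Wnt7b with 7.38, 9.45 and 7.62 FPKM, and Wnt8a was at 3 reads or fewer. Fgf18 led the Fgf genes with 3.28, 4.01 and 4.60 FPKM, and the metalloproteinase Bmp1 led the Bmp list with 34.0, 33.7 and 37.7 FPKM, followed by Gdf10. The Hedgehog receptor component Smo had 31.7, 30.1 and 35.4 FPKM, and Gli1, a target of the pathway, 9.82, 7.83 and 10.2 FPKM. Glycolysis and hypoxia genes had 0 of 13 and immediate early genes, which respond quickly to stimulation, 0 of 11, counts also near the 3.33% over all genes. Jun led the immediate early genes with 21.5, 23.9 and 23.8 FPKM, and Fos, below the 1 FPKM filter, had 0.324, 0.563 and 0.325 FPKM. In the housekeeping list Tuba1a was the only 1 of 19 genes with a 2-fold range, a share near that over all genes, and Tbp, at 2.10, 2.17 and 2.18 FPKM, the lowest.

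The basal keratins Krt5, with 21.5, 23.3 and 22.5 FPKM, and Krt14, with 14.3, 12.4 and 12.2 FPKM, led the surface ectoderm list, while Krt8 and Krt18, of simple epithelia, were lowest in WT 2 with 7.84, 2.49 and 6.33 FPKM and 6.11, 2.87 and 6.36 FPKM. Of 8 genes of mature skin 3 reached 1 FPKM: Krt10 with 2.45, 2.61 and 2.75 FPKM, Lor with 1.84, 2.45 and 2.92 FPKM and Sbsn with 1.19, 1.23 and 1.16 FPKM. Flg and Ivl had no reads.

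Cell types that form after this stage and tissues outside the embryo were mostly low. Of 10 mature glia genes 1 was at 3 reads or fewer in every embryo and 4 had a mean of at least 1 FPKM, among which Cnp had 4.93, 4.89 and 5.43 FPKM, Mbp 1.18, 1.06 and 1.05 FPKM and Aldh1l1 0.531, 2.05 and 0.711 FPKM. None of 12 late organ products and none of 12 trophoblast and decidua genes reached 1 FPKM in any embryo, with 8 and 9 of them at 3 reads or fewer throughout. Cela1, a pancreatic elastase, was the highest of the former with 0.508, 0.200 and 0.231 FPKM. Of 12 yolk sac endoderm genes 2 were at 3 reads or fewer throughout and only Apom passed 1 FPKM, with 6.19, 0.297 and 4.53 FPKM, and Apom is also a liver gene. The nutrient receptor genes Amn and Cubn, of yolk sac and kidney, had at most 0.272 and 0.0632 FPKM.

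Among the 430 genes with a 2-fold range, 111 belonged to at least 1 of the 63 lists and 319 to none. Of the 430, 379 were protein-coding and 55 had a mean under 100 reads. The share of genes with such a range was 5.89% in the fifth of genes with the shortest exon length and 1.59% in the fifth with the longest. The median log2 difference between WT 2 and WT 1 lay between -0.03 and 0.00 in the 5 length classes. That between WT 3 and WT 1 was lower the longer the genes, at 0.04, 0.04, 0.02, 0.00 and -0.03 from the shortest to the longest class.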

How the data were processed

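RNA-seq of 3 Dnmt3b+/+ embryos was used, 1 library each. The deposited table holds FPKM values, which the authors made with SeqMonk from unique STAR alignments to mm10; strandedness and annotation release are not given in the sources used here. Genes without reads hold a small floor value. Reads were worked back from the FPKM values for 34142 of 34244 genes. One further unnamed row was left out.

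Groups came from the labels. With 1 group no test was run: the SD and range over embryos were taken on log2(FPKM + 0.1) for genes with a mean of at least 1 FPKM, the range was set against 2-fold, and the counting SD is Poisson. Named genes were the 30 most abundant, the 30 with the highest SD and members of 63 lists, of which 6 genes were not matched; 5 further lists were added. Some members enter the counts but are not reported here by name. The members and lists were chosen with earlier results of these data known. Positions are from GENCODE M21 (GRCm38) and promoters from RefSeq. Python 3.11.15, pandas 2.3.3, numpy 2.4.6 and matplotlib 3.10.9 were used, and the scripts were tested on simulated data. Alternative pseudocounts, filters, scalings and leaving out each embryo were tried. Intervals and floors cover counting error only.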

Additional observations from a re-analysis of the deposited data

How the results depend on the processing

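No paired analysis was possible because the 3 embryos form 1 group. Of 55 alternative values, 41 moved little, counts by at most 1.5 times and other values by less than 1 SD. Genes at the expression threshold in all embryos numbered 12328, 8171 at 3 FPKM, 14154 at 0.5 FPKM and 17096 when the values were rescaled to TPM. The 100 most abundant genes took 19.8% of the summed FPKM, 9.28% of reads for those genes, 12.6% of reads for the 100 genes with the most reads, and 20.1% when ranked and summed among protein-coding genes. Globins took 0.432% of reads against 2.18% of summed FPKM. Genes with a 2-fold range numbered 430, and 234 with a pseudocount of 1, 1319 with no filter, 1219 with a mean of at least 0.1 FPKM and 134 with a mean of at least 5 FPKM. The median SD was 0.109, and 0.0842 with no filter and 0.135 with a mean of at least 0.1 FPKM. Leaving out 1 embryo at a time gave 54 to 405 genes with a 2-fold range, a median SD of 0.0684 to 0.113 and 3 to 9 lists in which at least as many tested members varied as did not, against 9; the lowest of each came without WT 2. The cause was not tested. Of 315 list medians 302 moved by less than the SD over embryos, which is wide for the lists that varied. Without WT 2 the median of the heart muscle list went from 4.58 to 1.57 FPKM. Without WT 1 the medians went from 4.83 to 2.52 FPKM for erythroid genes, from 239 to 145 FPKM for fetal and adult globins, from 2.92 to 1.87 FPKM for liver, from 1.08 to 0.685 FPKM for megakaryocytes, from 0.178 to 0.117 FPKM for pluripotency and from 1.17 to 0.0458 FPKM for the X and Y sex genes. With 3 embryos, a spread has few degrees of freedom, and genes near the floor rest on few reads.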
